A study of Rattus norvegicus with 8 samples.

Results

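The enzymes described here make and break down the prostanoids. They were measured in lung tumors and normal lung of rats exposed to NNK, a carcinogenic nitrosamine of tobacco smoke. Blood of control and of NNK-treated rats was measured too. The family holds 10 genes, Ptgs1, Ptgs2, Ptges, Ptges2, Ptges3, Ptgis, Ptgds, Hpgds, Tbxas1 and Hpgd. Each was measured by 1 probe in 1 spot, found through the probe's RefSeq transcript, so that 10 of the 13903 genes that could be named, and 10 of the 24684 probes that are not controls, belong to it. The family was chosen by a measured value, the difference of Ptges between tumor and normal lung on these arrays, which is among the largest. The tumor against normal lung values of its members are therefore given as a description. No p is printed for them, and the calls made by the rule below, which holds an adjusted p, are likewise a description that supports nothing.

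RNA came from male F344 rats at week 95 on the 1-colour Arraystar rat lncRNA array, which also carries mRNA probes. In lung, 3 tumors were set against 3 normal tissues that the labels call matched, all from rats given NNK, so neither lung group was free of the carcinogen. The blood groups were 1 sample each, the clot of whole blood from the control group and from the NNK-treated group. The titles do not give the number of rats in each. The labels do not say whether a tumor and the normal lung of the same number came from 1 animal, and the free-text description of the NNK blood names a lung tumor, whereas its other labels name blood, as which it was used. Tissue was bulk RNA, so fewer cells of a type and less RNA per cell cannot be told apart.

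Prostanoids are short-range lipid signals. A phospholipase frees arachidonic acid from membranes, a cyclooxygenase turns it into the unstable prostaglandin H2, and terminal synthases then make prostaglandin E2, prostaglandin D2, prostacyclin or thromboxane. The lung is a main site where circulating prostaglandins are taken up and inactivated, and prostaglandin E2 is known for its part in inflammation and in many epithelial tumors.

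Signals are log2 values of the background-subtracted processed signal, quantile-normalized within the 6 lung arrays, and each difference is lung tumor minus normal lung with its standard error (SE) from limma. Levels of different probes cannot be set against each other. A probe was called where the fold change was at least 2 and the adjusted p over all probes tested was at most 0.05. The 3 normal lung arrays differed from one another by less than the noise between spots of the same probe, with a mean squared difference of 0.467 to 0.787 of the one expected from that noise. The same held for tumor arrays 2 and 3 (0.466), whereas tumor array 1 differed from these by 3.03 and 3.36 times the expected value. An SE over 6 arrays therefore measures the spread between these arrays, and differences are also given with near-identical arrays counted as 1 sample, which leaves 2 tumor samples and 1 normal lung sample. Arrays with the same scan date were taken as 1 slide, since no slide label was read. By this grouping, slide 1 held the normal lung arrays and tumor array 1, and slide 2 held tumor arrays 2 and 3. Of the spots above background, the scanner software marked 4.92% to 8.62% as outliers on normal lung arrays and 15.9% to 25.3% on tumor arrays, and no spot was saturated.

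In lung, 9 of the 10 enzymes passed the filter on dim probes. Among these 9, Ptges was called higher in tumor, Ptgis, Ptgds and Hpgd were called lower, and 5 were not called. Over all 12471 lung probes tested, 13.5% were called higher and 15.5% lower. With spots that carry an outlier mark kept, which was needed for Ptges3 and Hpgd, the shares were 13.5% and 14.4% of 15803 probes. The contrast served to choose the family, so nothing is read from its count. The median difference was -0.18 over the 9 enzymes and 0.07 over all lung probes tested.

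**Figure D1:**
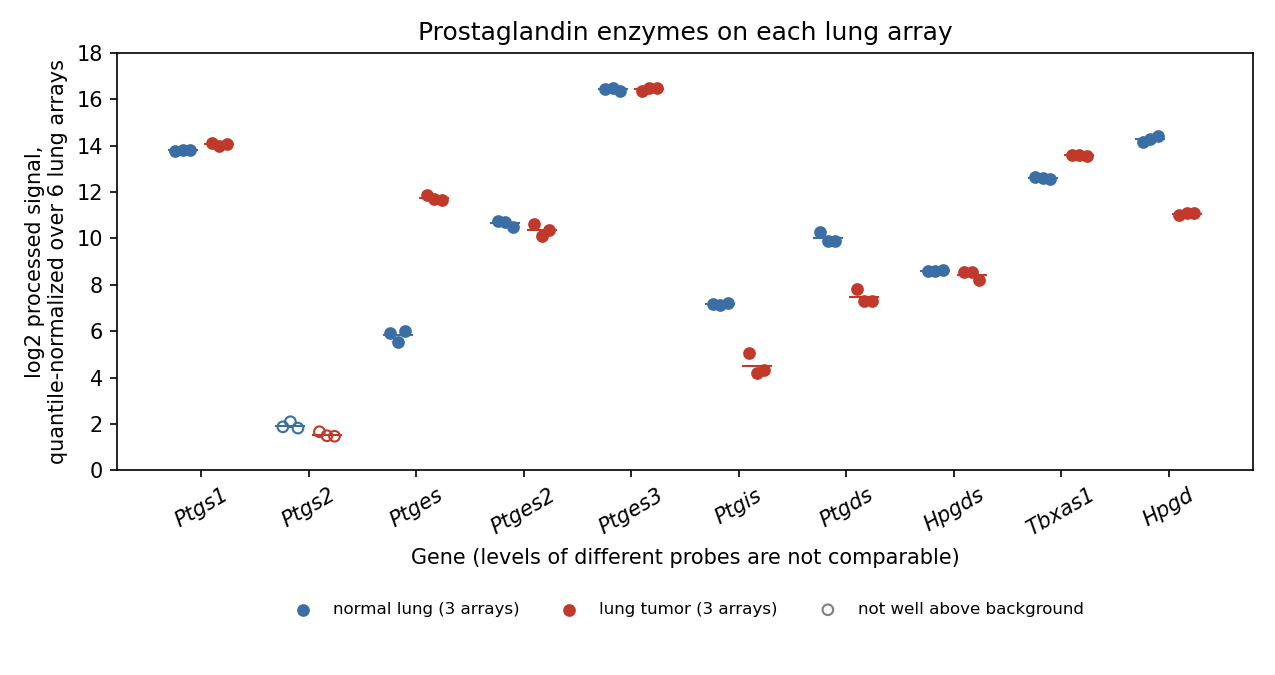
The vertical axis is the log2 processed signal after quantile normalization over the 6 lung arrays and the horizontal axis the 10 enzymes, with 1 point per array, the group mean as a short line, and open points where no array of the group was well above background. The tumor points of Ptges lie between 11.68 and 11.86, those of normal lung between 5.55 and 6.02, and Hpgd, Ptgds and Ptgis lie lower in tumor.

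The cyclooxygenases Ptgs1 and Ptgs2 catalyse the committed step of the pathway. Ptgs1 (COX-1), the form that most tissues express at all times, gave 13.79, 13.80 and 13.81 on the normal lung arrays and 14.12, 13.97 and 14.09 on the tumor arrays. All tumor arrays lay above all normal arrays, yet the difference was small, 0.26 (SE 0.06), or 1.20-fold, and it was not called. With a shift of each array to its 75th percentile it was 0.05. Ptgs2 (COX-2), the form induced by inflammation and often found raised in tumors, was not well above background on any of the 8 arrays, tumors included. Its signal was 1.82 to 2.09 on normal lung and 1.47 to 1.66 on tumor arrays, and no fold can be given.

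Ptges, the inducible membrane synthase of prostaglandin E2 that works downstream of the cyclooxygenases, differed most between the tissues. Its signal was 5.91, 5.55 and 6.02 on the normal lung arrays and 11.86, 11.69 and 11.68 on the tumor arrays. Every tumor array lay far above every normal array, and all 6 spots were well above background with no outlier mark. The difference was 5.92 (SE 0.14), or 60.5-fold, the 8th largest of 12471 probes and the 6th among the 8114 that RefSeq names. Within slide 1, tumor array 1 exceeded the normal arrays by 6.04, and with near-identical arrays counted once the difference was 5.95 (tumor SD 0.12, n = 2 tumor samples and 1 normal sample). Over 18 alternative settings the difference ran from 4.93 to 6.04.

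The other two prostaglandin E synthases did not show such a difference. Ptges2, a second membrane-associated prostaglandin E synthase that is expressed widely, gave 10.74, 10.70 and 10.51 in normal lung and 10.62, 10.11 and 10.37 in tumor, where the spot of tumor array 3 was marked and left out. The groups overlapped, and the difference was -0.28 (SE 0.18, n = 3 normal and 2 tumor arrays). Ptges3, also known as the Hsp90 co-chaperone p23 and abundant in most cells, gave 16.45, 16.49 and 16.38 in normal lung and 16.36, 16.48 and 16.50 in tumor. These groups overlapped too, with a difference of 0.01 (SE 0.07), although the spot was marked on all 3 tumor arrays and was kept here. Neither was called.

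The bases before the start of Ptges and of Hpgd, the enzymes called with the largest difference in each direction, are shown because they hold the promoters of these genes. Of the 10 enzymes, 7 have an entry in the RefSeq promoter table of the rat assembly GRCr8, and Ptges2, Ptgis and Hpgds do not. Each sequence is the 250 bases before the start, 5′ to 3′ on the gene's own strand, which is the minus strand for both. Capitals mark a GC box (GGGCGG) or an EGR element (GCGNGGGCG), searched on both strands, and these motifs may overlap each other.
Ptges, chr3:34586988-34587237: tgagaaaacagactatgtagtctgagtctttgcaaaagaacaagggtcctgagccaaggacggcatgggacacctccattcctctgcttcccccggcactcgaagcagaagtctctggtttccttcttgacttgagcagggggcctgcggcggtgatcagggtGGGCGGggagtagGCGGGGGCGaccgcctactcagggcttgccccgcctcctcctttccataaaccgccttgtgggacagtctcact
Hpgd, chr16:39034832-39035081: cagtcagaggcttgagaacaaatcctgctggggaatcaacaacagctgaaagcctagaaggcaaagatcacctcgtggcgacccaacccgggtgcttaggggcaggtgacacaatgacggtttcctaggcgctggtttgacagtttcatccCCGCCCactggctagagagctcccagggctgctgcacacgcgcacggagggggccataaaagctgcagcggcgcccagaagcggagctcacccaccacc
The Ptges window held 1 GC box and 1 EGR element, and the Hpgd window held 1 GC box, which reads on the opposite strand. Among all 33469 windows of this length, 30.5% held a GC box and 4.29% an EGR element. Of the 7 enzymes, Ptges was the one with an EGR element, while a GC box was found for Ptgds, Ptges, Ptges3, Ptgs2 and Hpgd. A TATA box (TATAAA), present in 12.9% of windows, was found for Tbxas1 and for neither of the genes shown. Also searched were a CCAAT box (34% of windows), an AP-1 element (TGACTCA, 4.05%) and an E-box (CACGTG, 5.59%). Of the 7 enzymes, Ptgs2 alone had a CCAAT box and an E-box, and none had an AP-1 element. These are matches of letters and describe the sequence alone.

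Among the synthases of the other prostanoids, Ptgis, which makes the vasodilator prostacyclin and is typical of vessel walls, gave 7.16, 7.14 and 7.20 in normal lung and 5.05, 4.19 and 4.31 in tumor. All tumor arrays were below all normal arrays, with tumor array 1 the highest of the 3, and the difference was -2.65 (SE 0.24), or 6.28-fold lower. It was -2.12 within slide 1 and -2.52 with near-identical arrays counted once, a setting in which Ptgis no longer met the call rule, and the normexp background correction reduced it to -1.20. Endothelial markers were lower in the same tumors. The summed signal of the 5 endothelial markers on the array ran from 232613 to 242061 in normal lung and from 47675 to 48358 in tumor, 4 of 4 tested were called lower, and Cdh5 was not well above background in either tissue. Smooth muscle markers summed to between 49496 and 51849 in normal lung and between 41801 and 51309 in tumor, with 0 of 4 called. The part of these cells in the Ptgis value was not tested.

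Prostaglandin D2 has a pair of unrelated synthases. Ptgds, the lipocalin-type synthase, which also carries small lipids in body fluids, gave 10.28, 9.88 and 9.91 in normal lung, with the spot of array 3 marked and left out, and 7.83, 7.29 and 7.29 in tumor. The groups did not overlap, and the difference was -2.61 (SE 0.23, n = 2 normal and 3 tumor arrays), or 6.11-fold lower. Within slide 1 it was -2.25, and over 18 alternatives it ran from -2.80 to -2.16. Hpgds, the haematopoietic synthase of mast cells and other immune cells, gave 8.61, 8.60 and 8.64 in normal lung and 8.55, 8.55 and 8.21 in tumor. The difference of -0.18 (SE 0.11) was small and not called, and tumor array 3 accounted for most of it. Mast cell markers summed to between 3436 and 3629 in normal lung and between 1830 and 1920 in tumor, with 3 of 7 tested called lower and Hdc not well above background in tumor.

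Tbxas1, the synthase of thromboxane, which activates platelets and is also made by macrophages, gave 12.64, 12.59 and 12.57 in normal lung and 13.62, 13.60 and 13.56 in tumor. The groups lay apart with little spread, and the difference of 1.00 (SE 0.05) corresponded to 1.996-fold, just under the fold of the call rule. It was called in 7 of the 18 alternatives, among them those without normal lung array 1 (1.01), without tumor array 2 (1.00) and without tumor array 3 (1.02). With the 75th percentile shift it was 0.81. The 7 macrophage markers summed to between 157123 and 167245 in normal lung and between 168719 and 199226 in tumor, with 1 of 6 tested called higher, while Marco was not well above background. The 4 platelet markers on the array summed to between 4927 and 5266 in normal lung and between 7746 and 9075 in tumor, although 3 of the 4 were called lower, and Ppbp and Gp9 were not well above background in tumor. The part of these cells in the Tbxas1 value was not tested.

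Hpgd, hydroxyprostaglandin dehydrogenase, starts the inactivation of prostaglandins and is prominent in healthy lung. Its signal was 14.14, 14.29 and 14.40 on the normal lung arrays and 11.01, 11.10 and 11.11 on the tumor arrays. Every tumor array was below every normal array by a wide margin, and the difference was -3.21 (SE 0.08), or 9.22-fold lower, the 222nd lowest of 15803 probes. It was -3.27 within slide 1 and -3.22 with near-identical arrays counted once, and over 18 alternatives it ran from -3.35 to -3.13. The spot carried an outlier mark on 5 of the 6 arrays, so this value comes from the fit that keeps marked spots. Markers of type 1 alveolar cells, which line the air spaces, summed to between 1223620 and 1238880 in normal lung and between 322317 and 346506 in tumor, with 5 of 7 probes called lower and Rtkn2 not well above background in normal lung. Type 2 alveolar markers, the surfactant genes among them, summed to between 990517 and 1031950 in normal lung and between 1160920 and 1183070 in tumor, with 1 of 6 called higher. The part of these cells in the Hpgd value was not tested.

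**Figure D2:**
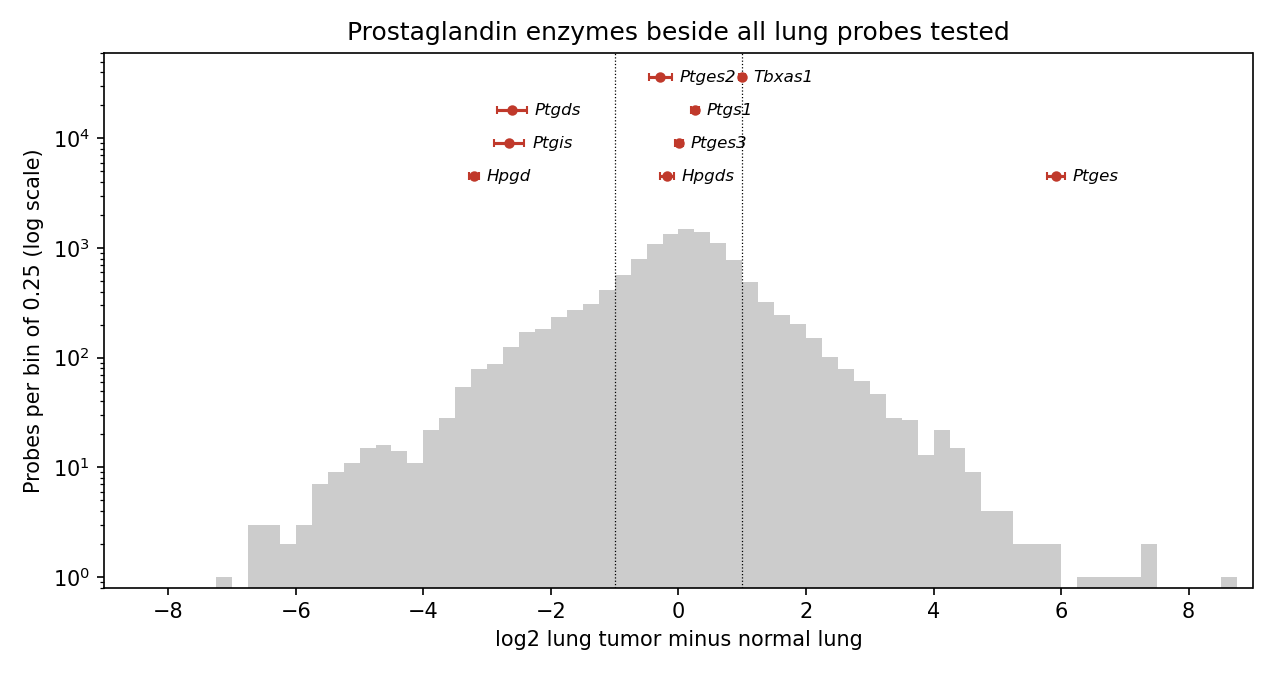
Grey bars count the 12471 lung probes tested with marked spots left out (logarithmic vertical axis) by their log2 difference, lung tumor minus normal lung, and red points with SE bars place the 9 enzymes with a value on the same horizontal axis, their height having no meaning. The points of Hpgd and Ptges3 come from the fit with marked spots kept, over 15803 probes, and are not among the probes of the bars. Dotted lines mark 2-fold. Ptges lies at 5.92 in the upper tail, Hpgd, Ptgis and Ptgds at -3.21, -2.65 and -2.61, and Tbxas1 on the 2-fold line.

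Around these enzymes, 41 other genes of prostanoid and leukotriene biology were listed, of which 38 have a probe, 28 could be tested and 10 were too dim. Of the 28, 6 rose and 4 fell in tumor, beside 13.5% higher and 15.5% lower over all lung probes tested, and their median difference was 0.55 beside 0.07 over all. Ptges and not these genes served to choose the family. The lists were drawn up with earlier results of these data known, however, so their counts and p are a description. Their adjusted p come from limma over all probes tested. That fit takes near-identical arrays as separate samples, so these p measure the spread between arrays, which may be technical.

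Upstream, phospholipases supply the substrate. Of 11 phospholipases and regulators tested, 1 rose and 2 fell. Pla2g10, a secreted phospholipase A2 that releases arachidonic acid efficiently, gave 6.19, 6.38 and 6.29 in normal lung and 11.44, 11.44 and 11.32 in tumor. Like Ptges, it was far higher in every tumor array, by 5.12 (SE 0.07), or 34.7-fold (limma adjusted p = 3.23e-06). The difference was 5.13 with near-identical arrays counted once, and it was called under all 18 alternatives. The secreted phospholipases Pla2g2a and Pla2g5 fell by 2.28 (SE 0.18, limma adjusted p = 0.000185) and by 1.82 (SE 0.21, limma adjusted p = 0.000946). Both calls were lost with near-identical arrays counted once, where the differences were -2.19 and -1.71. For Pla2g5, normexp left -0.93 and no call. The cytosolic Pla2g4a, the main supplier of arachidonic acid within cells, differed by 0.89 (SE 0.06), under the fold of the rule.

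Downstream, the receptors gave little signal. Of the 8 receptor genes with a probe, 6 were too dim to test on the lung arrays, and neither Ptger3 nor Ptgir was called. Ptgir, the prostacyclin receptor, gave 6.13, 8.11 and 8.22 in normal lung and 8.11, 7.84 and 8.11 in tumor, so that normal array 1 alone lay below the rest. Ptger3, a prostaglandin E2 receptor, gave 3.60, 6.13 and 3.22 in normal lung and 5.47, 5.40 and 4.78 in tumor. Here normal array 2 stood apart, and without it the difference of 0.90 became 1.80 and was called. Ptger3 was, however, well above background on 1 of the 3 normal arrays and on all 3 tumor arrays. The tumor arrays alone let it pass the filter on dim probes, so nothing is read from that call.

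Of 5 tested genes of transport and further metabolism, 1 rose and 2 fell. Slco2a1, the transporter that brings prostaglandins into cells for breakdown, gave 6.41, 6.29 and 6.98 in normal lung and 4.32, 4.12 and 4.23 in tumor. It fell by 2.34 (SE 0.20, limma adjusted p = 0.000247), and the normexp correction left -0.85 and no call. Ptgr1, a reductase that acts on prostaglandins after Hpgd, fell by 1.52 (SE 0.07, limma adjusted p = 2.26e-05). Cbr1, a carbonyl reductase that can convert prostaglandin E2 to prostaglandin F2 alpha, rose by 1.36 (SE 0.10, limma adjusted p = 0.000115, marked spots kept). Ptgr2, the other prostaglandin reductase of the list, differed by 0.09 (SE 0.07) and was not called.

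The lipoxygenase branch uses the same substrate to make leukotrienes and related lipids, and 4 of its 8 tested genes rose and 0 fell, beside the shares of all probes given above. Ltc4s, the leukotriene C4 synthase and a membrane relative of Ptges, rose by 2.06 (SE 0.19, limma adjusted p = 0.000366) from a normal signal that was well above background on 2 of 3 arrays, and the normexp correction left 0.79 and no call. Alox15 rose by 2.01 (SE 0.15, limma adjusted p = 0.000139) and Alox12 was 2.82-fold higher (SE 0.07 on the log2 scale, limma adjusted p = 2.87e-05), both lipoxygenases. Lta4h, which completes leukotriene B4, rose by 1.18 (SE 0.06, limma adjusted p = 3.05e-05, marked spots kept). This call was lost with near-identical arrays counted once, where the difference was 1.17. The entry enzyme Alox5 and its partner Alox5ap, also a relative of Ptges, differed by 0.90 (SE 0.08) and 0.20 (SE 0.06), and neither was called. The remaining relatives with a probe, Mgst1 and Mgst2, differed by 0.56 (SE 0.10) and 0.57 (SE 0.05), again under the fold of the rule.

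**Figure D3:**
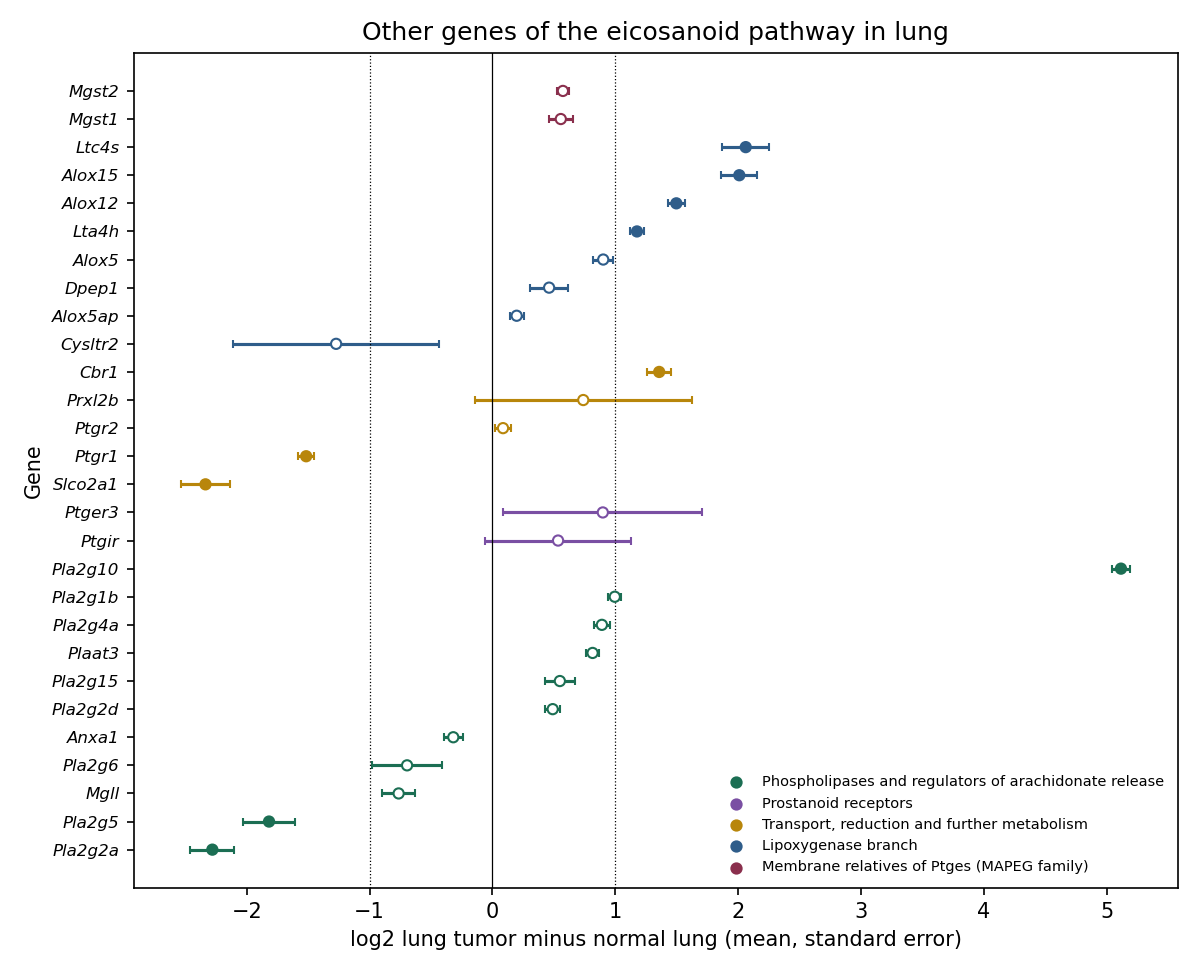
The horizontal axis is the log2 difference, lung tumor minus normal lung, with SE bars, for the 28 tested pathway genes on the vertical axis, coloured by list, with filled points for genes past the call rule and dotted lines at 2-fold. Alox5ap and Ltc4s belong also to the family of Ptges and are drawn with the lipoxygenase branch. Pla2g10 stands at 5.12, Pla2g2a and Slco2a1 at -2.28 and -2.34, and 4 of the 8 lipoxygenase genes lie past the rule above 0.

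In blood, 1 array per group allows no test, and the signals were quantile-normalized over the 2 blood arrays. Of the 10 enzymes, 7 had a signal well above background on 1 array or both. By normalized signal alone, with dim control signals taken as they stand, 2 of these 7 (Ptges2 and Ptgds) were higher in NNK blood by 2-fold or more and 1 (Ptgs1) was lower by as much, beside 23.1% higher and 19.1% lower among the 14452 blood probes compared. Of the 6 enzymes well above background on both arrays, 1 was higher and 1 lower by 2-fold or more. The shares above cover probes well above background on 1 blood array or both. None is given for probes bright on both, so nothing is read from the count of these 6. Ptgs1 gave 12.46 in control blood and 10.93 in NNK blood, a difference of -1.52, or 2.88-fold lower, which ran from -2.33 with the 75th percentile shift to -1.05 with quantile normalization over 8 arrays. Ptges2 gave 5.71 and 6.99, a difference of 1.28, or 2.42-fold higher, which was 2.31 with quantile normalization over 8 arrays and 0.76, under 2-fold, with normexp. Ptgds was not well above background in control blood and gave 4.78 in NNK blood. In this normalization it was at least 1.40-fold higher (0.49 on the log2 scale), a bound that does not reach 2-fold. Taken as they stand, the Ptgds signals differed by 2.83, and with normexp by 0.46, which is under that bound. Ptgs2, Ptgis and Hpgd were not well above background on either blood array.

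Ptges, so different between the lung groups, gave 6.30 in control blood and 5.95 in NNK blood, a difference of -0.35. The differences of Ptges3, Hpgds and Tbxas1 were 0.88, -0.79 and 0.34, all under 2-fold. None of these 4 has a replicate against which the difference can be set. The 4 platelet markers, all well above background on both arrays, summed to 150370 in control blood and 85280 in NNK blood. Ptgs1 and Tbxas1 are both platelet enzymes, and the part of platelets in their values was not tested.

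**Figure D4:**
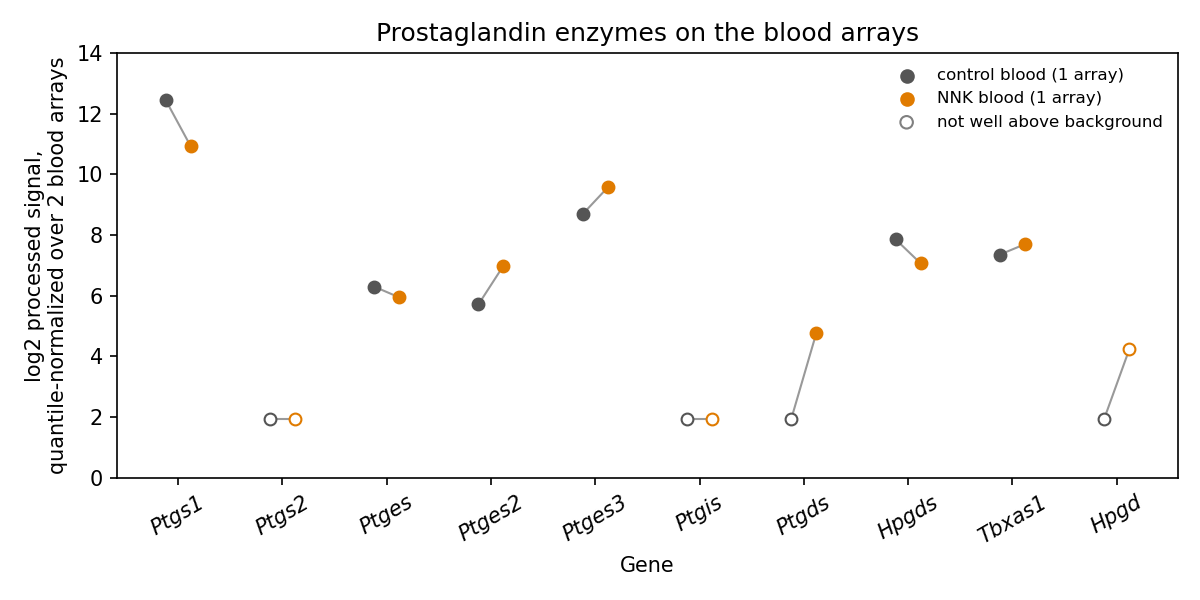
The vertical axis is the log2 processed signal after quantile normalization over the 2 blood arrays and the horizontal axis the 10 enzymes, with 1 point for control blood and 1 for NNK blood, open where the probe was not well above background. Ptgs1 drops from 12.46 to 10.93, Ptges2 goes from 5.71 to 6.99, and Ptges from 6.30 to 5.95.

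Of 27 pathway genes compared in blood, 7 were higher and 10 lower in NNK blood by 2-fold or more in normalized signal, beside the 23.1% and 19.1% of all blood probes. For probes well above background on both arrays no share over all probes is given, so nothing is read from their counts. Among the 20 such pathway genes, 6 were higher and 4 lower. Those higher were Lta4h (3.60-fold), Mgst1 (3.13-fold), Plaat3 (3.07-fold), Anxa1 (2.64-fold), Pla2g2d (2.51-fold) and Pla2g4a (2.28-fold). Those lower were Alox12 (3.99-fold), Mgst2 (3.13-fold), Ptgir (2.62-fold) and Pla2g2a (2.24-fold). Mgll and Ltb4r2, dim in NNK blood, were at least 2.26-fold and at least 2.28-fold lower. The remaining genes in these counts that were dim on 1 array had bounds under 2-fold, from 1.06-fold to 1.90-fold.

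Across all 8 arrays, Ptges, Ptges2, Ptges3, Ptgs1, Hpgds and Tbxas1 were well above background everywhere, Ptgds on 7 arrays, Ptgis and Hpgd on the 6 lung arrays only, and Ptgs2 on none. With the 8 arrays quantile-normalized together, Ptges gave 5.35 to 5.76 in normal lung, 10.74 to 10.91 in tumor, 8.02 in control blood and 7.39 in NNK blood. Tumor was thus the highest, followed by control blood, NNK blood and normal lung. The place of blood depends on the scaling: in processed signals that were not scaled between arrays, normal lung exceeded control blood by 0.02 and lay below NNK blood by 0.87. Over 3 scalings and both blood arrays, normal lung was above blood in 6 of 6 comparisons for Ptges2, Ptges3, Ptgis, Ptgds, Hpgd and Tbxas1, and the sign changed with the scaling for Ptges, Ptgs1, Ptgs2 and Hpgds. Tissue and slide cannot be told apart here, since both blood arrays lay on slide 3.

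The genes whose centred signal over the 8 arrays was most like that of Ptges were, by the root mean square of the log2 difference, Tescl (0.22), Cbln4 (0.51), Slc5a7 (0.74), Bpifa5 (0.74) and Lypd2 (0.77), whereas the median over the 6754 candidate probes was 2.71. Candidates were RefSeq-named mRNA probes with a value on all 8 arrays and well above background on every lung tumor array, the group where Ptges is high. On this scale Ptges differed between tumor and normal lung by 5.21 and between NNK and control blood by -0.64. Tescl, nearest to it, differed by 5.12 and -0.83. Cbln4, a secreted synaptic organiser, differed by 5.73 and 0.17, and Slc5a7, the choline transporter of nerve terminals, by 3.72 and -0.40. The 8 arrays share 4 groups and 3 slides, and no test was made.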

How the data were processed

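RNA of 8 samples was hybridised to 1-colour arrays. For each array the authors deposited per-spot intensity values from Agilent Feature Extraction 10.5.1.1. The software had subtracted the background from the processed intensity analysed here, which carried no normalization between arrays. A table of log2 values by the authors was deposited too, quantile-normalized over all 8 arrays in GeneSpring, with a median of 5.62 on each array. They correlated with the log2 processed signals at r of 0.984 to 0.998 and lacked 22 probes.

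Quantile normalization of the log2 processed signals ran over the 6 lung arrays and, apart from these, over the 2 blood arrays. Spots marked as outliers were left out, except for probes that then kept fewer than 2 arrays of a group, which were fitted with marked spots kept. A probe had to be well above background on 3 of the 6 lung arrays or on 1 of the 2 blood arrays. limma 3.58.1 in R 4.3.3 compared the lung groups (two-sided, Benjamini-Hochberg adjusted). The lung fit, and no other step, was tested on simulated data, with noise independent between arrays and planted differences. Where a probe was dim on 1 of the 2 blood arrays, the bound on its fold uses the higher of its own signal there and the lowest signal well above background. The 75th percentile of the processed signal was 1191 to 1329 in lung, 95.4 in control blood and 205.8 in NNK blood. The number of arrays limits the precision.

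Groups came from the sample titles. Nothing in the labels says that replicates came from separate animals, so p-values measure the spread between these samples, which may be technical. Samples of the same number deviated together with r = 0.14, -0.04 and 0.16. Since the normal lung arrays differed by less than the noise between spots, these r cannot show whether the numbers are pairs. The labels do not tie the numbers to animals, and they were not taken as pairs in the main fit. The members and lists were chosen with earlier results of these data known. Named were all 10 members, the pathway genes called in lung or at least 2-fold different on both bright blood arrays, and the 5 RefSeq-named probes nearest to Ptges. Pla2g4a, Ptger3, Ptgir, Ptgr2, Alox5, Alox5ap, Mgst1 and Mgst2 in lung, and Mgll and Ltb4r2 in blood, were named after their values were seen. Probe names came from RefSeq GRCr8, as did the promoter windows. Alternatives were quantile normalization over 8 arrays, a 75th percentile shift, normexp with an offset of 50 on the median signals, a floor of 5, no filter and a stricter one, marked spots kept, the authors' log2 values, the methods' t-test, a block for the replicate number or for the slide, near-identical arrays counted once, and each lung array left out. The unscaled and 75th percentile comparisons of lung with blood were added after seeing the data.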

Additional observations from a re-analysis of the deposited data

How the results depend on the processing

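In lung, the number of enzymes called higher was 2 instead of 1, with Tbxas1 added, after quantile normalization over 8 arrays, normexp, in the authors' values and with the slide as a block, and it ranged from 1 to 2 when each lung array was left out. With the slide as a block the tumor effect rests on tumor array 1, the tumor array that shares a slide with normal lung. The number called lower was 3 in all alternatives except near-identical arrays counted once, where it was 2 and Ptgis was lost. Pathway genes called lower numbered 2 instead of 4 with normexp and with near-identical arrays counted once, and 5 with no filter on dim probes. Those called higher ranged from 5 to 8. With the replicate number as a block, the paired form of the fit, the counts were 1 higher and 3 lower for the enzymes and 6 and 4 for the pathway genes, and it changed no call. In blood, 2 enzymes were higher by 2-fold or more in normalized signal, a count that holds Ptgds with its bound of 1.40-fold. This count was 0 with normexp, 1 with the stricter filter and 3 with no filter on dim probes. Enzymes lower in blood numbered 2 instead of 1, with Hpgds added, after quantile normalization over 8 arrays and in the authors' values. No difference that was called changed its sign. Ptges3, near 0, was of either sign, with 12 of 18 alternatives above 0. Counting near-identical arrays once leaves fewer samples, and the cause of the other changes was not tested. The signal over background limits what can be said of Ptgs2 and of most receptors, and the blood values rest on 1 array each.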
